A study of Homo sapiens with 18 samples.

Results

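The genes described here are 10 members of the Notch pathway, taken by symbol from the 58051 gene identifiers counted in every library: the transcription factor genes HES1, HES4, HEY1, HEY2 and HEYL, the ligand gene JAG1, the feedback inhibitor gene NRARP and the receptor genes NOTCH1, NOTCH2 and NOTCH3. All 10 symbols matched 1 identifier each. They were measured by RNA-seq of polyadenylated RNA in 18 libraries of hTERT RPE-1, a human retinal pigment epithelial line immortalised with telomerase. All cells had been grown in 10% serum and then held for 48 h in 0.1% serum, which the labels describe as a G0/G1 state. In the etoposide arm (time points 0, 20 and 40) they then received 50 µM etoposide, a poison of topoisomerase II, for 30 min. The DMSO arm (time points 0, 20 and 40) had no etoposide. Transcription was blocked with 10 µM triptolide, and the labels give neither the unit of the time points nor whether triptolide was present at 0. Each of the 6 groups had 3 replicates, called independent in the labels, all of 1 cell line.

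Notch receptors sit on the cell surface and are cleaved after they bind a ligand on a neighbouring cell. The released intracellular domain enters the nucleus, joins the DNA-binding protein RBPJ and a Mastermind coactivator, and switches on genes of the HES and HEY families, which encode repressors of transcription. HES1 protein also represses its own gene, and in mouse cells its mRNA is known to be short-lived. In the developing mouse retina HES1 helps to keep progenitor cells undifferentiated.

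Total counts ranged from 7957691 to 11580219 per library, and 14186 genes passed the filter on low counts. Levels are relative to the other RNAs of a library, not to the number of cells. Values are CPM, counts per 1000000 counts of the scaled library, at which 3 counts correspond to 0.255 to 0.374 CPM. The libraries of replicate 3 stood apart from those of replicates 1 and 2: the deviations from the group means correlated over genes at 0.392 to 0.63 between replicates 1 and 2 and at 0.359 to 0.911 between libraries of the same number. Between replicate 3 and the others they correlated at −0.785 to −0.531. The deviations of the 3 libraries of a group sum to 0, so positive values within a number bring negative values between some numbers. Changes are therefore given from the model without the replicate number and, where the call differs, with the replicate number as a block. The block and the numbered pairs below assume matching by number, which these values do not show for replicates 1 and 2. For some genes the number of groups with replicate 3 highest or lowest is given below. The share of all tested genes with such a pattern was not determined. Of the 12 markers of retinal pigment epithelium, DCT and TTR had 0 counts in every library, TYR had 2 counts in all and RPE65 28, while the transcription factor genes MITF (23.8 to 69.4 CPM) and OTX2 (17.1 to 38.3 CPM) were expressed throughout. BEST1 reached 2455 CPM in replicate 2 of DMSO at time point 0, against a median of 5.73 CPM over the libraries. That library is left out of the HES1 and HES4 results below as a check. The summed markers reached 0.32 to 4.18 CPM for endothelium and 0.125 to 1.04 CPM for blood.

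The promoters of the HES genes are shown first, as a place to look for words that match RBPJ sites. The word searched was TGGGAA, the core of the RBPJ site, on both strands of the RefSeq promoters of GRCh38.p14, which run from 250 bases before to 50 bases after each start. HES1 (chr3:194136018-194136087, plus strand) and HES4 (chr1:1000158-1000227, minus strand) are printed from base −130 to base −61 before the start, with TGGGAA in capitals.
HES1: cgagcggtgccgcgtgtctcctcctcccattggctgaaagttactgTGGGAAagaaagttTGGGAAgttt
HES4: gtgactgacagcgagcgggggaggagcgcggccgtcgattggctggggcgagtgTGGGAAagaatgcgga
The HES1 promoter held 2 matches, at −84 to −79 and −70 to −65, both on the strand of the gene. The HES4 promoter held 1 match at −76 to −71. In both genes the match that starts farthest from the start was preceded by G, giving the longer word GTGGGAA. HEY2 and HEYL each held 1 match on either strand. GTGGGAA was present there too, in HEY2 on both strands (−4 to 2 and −213 to −207) and in HEYL on the opposite strand (−178 to −172). No match lay in the windows of JAG1, NRARP, NOTCH1, NOTCH2 and NOTCH3, and that of HEY1 was not searched. Of all 35116 promoters searched, 24% held TGGGAA at least once and 3.8% held it 2 or more times. GTGGGAA was held at least once by 6.25% and 2 or more times by 0.248%. These matches describe the letters of the windows, and no binding was measured. Other forms of the site, and bases outside the windows, were not searched.

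Since the series follows RNA levels after a block of transcription, the 3′ untranslated regions were searched for ATTTA, the core of AU-rich elements, which are known to hasten mRNA decay in many short-lived transcripts. In the principal GENCODE 29 transcripts, HES1 held no ATTTA in 499 bases, where 1467 genes of like length held a median of 1. HEYL also held none, in 2354 bases, where genes of like length held a median of 5. JAG1 held 9 in 1814 bases, HEY1 7 in 1178 bases, NOTCH2 7 in 3753 bases and HEY2 6 in 1467 bases. NOTCH1 held 6 in 1638 bases, NOTCH3 4 in 1624 bases, NRARP 2 in 1102 bases and HES4 1 in 95 bases. Of genes of like length, as many or more were held by 8.76% for JAG1, 6.85% for HEY1, 61.7% for NOTCH2 and 18% for HEY2. The shares were 22.1% for NOTCH1, 42.5% for NOTCH3, 56% for NRARP and 13.6% for HES4. The longer word TTATTTATT, present in 8.77% of 12072 genes, was found once each in JAG1 and NOTCH1, and the longest match in HES4 was TATTTAT, present in 3.9% of 308 genes with a region of like length and in 33.9% of all. TATTTAT also lay in JAG1 (5), NOTCH1 (4), NOTCH3 (2), HEY2 (1), NRARP (1) and NOTCH2 (1). The TTATTTATT sites of JAG1 and NOTCH1 and the TATTTAT site of HES4 are printed with their flanks, the match in capitals.
JAG1, bases 472 to 480 of the region: atgactttaTTATTTATTttttttaat
NOTCH1, bases 348 to 356 of the region: aaatgccatTTATTTATTgattccttt
HES4, bases 82 to 88 of the region: gagaaaacgTATTTATtattcca

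Of the 10 genes, 6 were abundant enough to test: HES1, HES4, HEY1, JAG1, NOTCH1 and NOTCH2. Levels of different genes were compared by CPM per kilobase of exon. The length is that of all annotated exons of a gene merged. It can exceed the length of the RNA present, so the order depends on it. On this scale NOTCH2 was the most abundant, with a median of 16.5 over the 18 libraries (11.1 to 23.7). It stood above HES4 in 18 of 18 libraries. HES4 followed at 6.98 CPM per kb (3.6 to 11.1), above JAG1 in 16 of 18 libraries. JAG1 had 4.08 CPM per kb (3.05 to 5.6) and lay above NOTCH1 in 17 of 18 libraries. NOTCH1 had 2.52 CPM per kb (1.17 to 3.32) and HES1 1.87 CPM per kb (0.514 to 6.16). They had no single order, since NOTCH1 was the higher in 9 of 18 libraries, among them every library of replicate 3. At time point 0 mean HES1 was 3.69 CPM per kb with etoposide and 4.12 with DMSO, and mean NOTCH1 2.57 and 2.52. At 40 mean HES1 was 1.09 and 0.965, and mean NOTCH1 2.62 and 2.34. HEY1 came next at 0.326 CPM per kb (0.064 to 0.637), below HES1 in 18 of 18 libraries. As in any bulk sample, fewer cells that express a gene and less RNA per cell cannot be told apart.

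The other 4 genes lay near or below the limit of detection in all 6 groups. HEYL, a HES-related repressor gene (chromosome 1, 39624153 to 39639945), had 0 counts in 18 libraries, which allows up to 0.255 to 0.374 CPM per library. HEY2, best known for its role in the heart and vessels in mice (chromosome 6, 125747664 to 125761269), had 6 counts in all, spread over 4 libraries. NRARP, whose product dampens Notch signalling and is itself a target of the pathway (chromosome 9, 137300482 to 137302251), had 41 counts in all and more than 3 counts in 4 of 18 libraries. NOTCH3, the receptor gene typical of vascular smooth muscle (chromosome 19, 15159038 to 15200981), had 42 counts in all and likewise more than 3 counts in 4 libraries. No change with etoposide or time was testable for these genes at this depth. The limit given for HEYL covers counting error only.

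HES1 (chromosome 3, 194136145 to 194138732, plus strand, GRCh38) was lower at time point 40 than at 0 in every numbered pair of both arms, and no difference between the arms passed the test. In both arms its change passed with the replicate block and did not pass without it. In the etoposide arm its levels were 6.52, 12.7 and 3.65 CPM in replicates 1, 2 and 3 at time point 0, 10.1, 5.06 and 2.86 CPM at 20, and 2.94, 2.71 and 1.11 CPM at 40. In the DMSO arm they were 12.6, 10.3 and 2.67 CPM at time point 0, 7.79, 5.84 and 4.06 CPM at 20, and 3.54, 1.06 and 1.37 CPM at 40. All 3 etoposide libraries of time point 40 lay below all 3 of time point 0, as in 4.84% of tested genes. In the DMSO arm the groups overlapped, because replicate 3 at time point 0 lay below replicate 1 at 40. HES1 was lowest in replicate 3 in 5 of 6 groups. The counts behind these levels were small, from 10 to 126 reads per library.

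**Figure D1:**
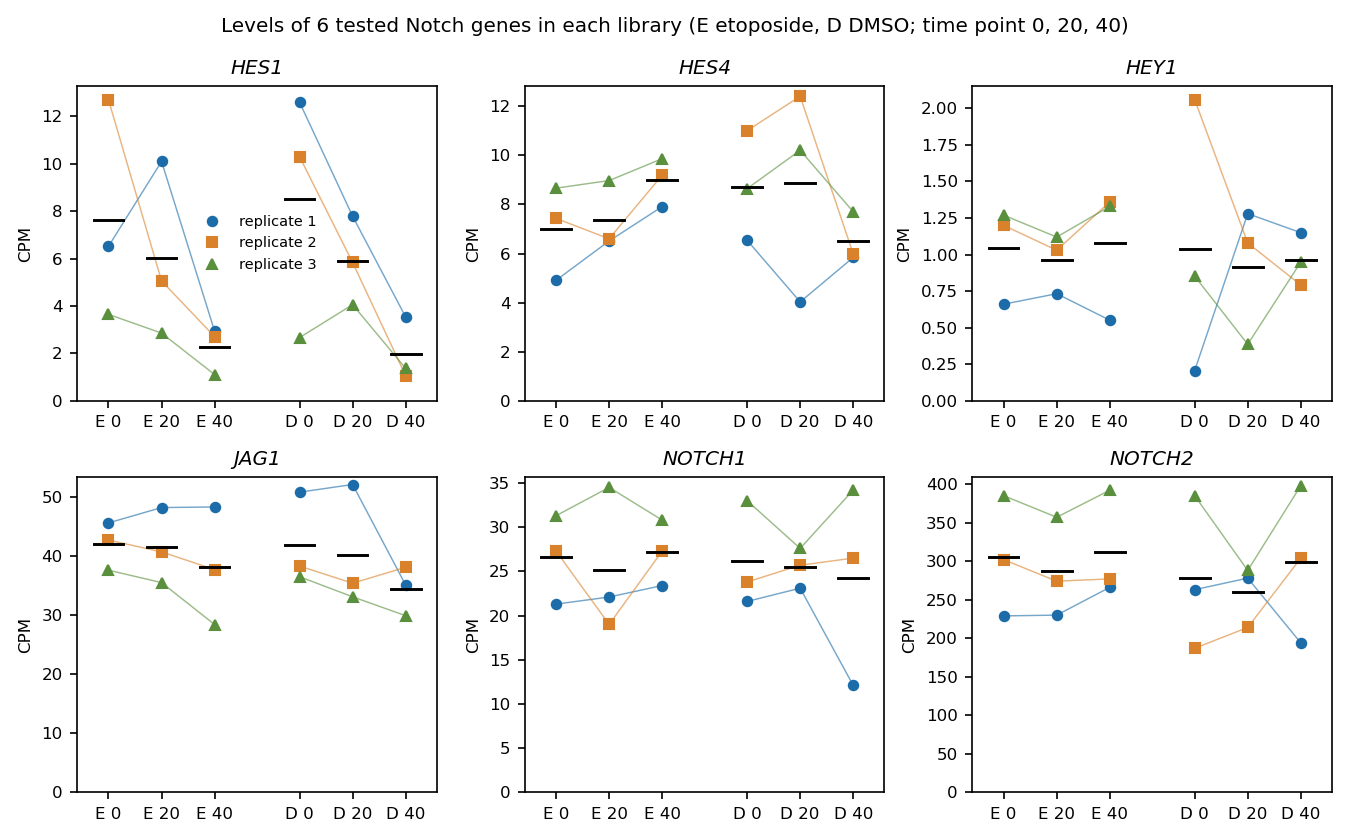
CPM of the 6 tested genes in each library (y axis, linear from 0), with etoposide (E) left of DMSO (D) at time points 0, 20 and 40. Symbols and thin lines follow the replicate numbers and black bars are means of 3 libraries. HES1 means at time point 40 were 2.26 CPM with etoposide and 1.99 CPM with DMSO, against 7.61 and 8.5 CPM at 0.

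Within each replicate number, HES1 at time point 40 was 45.2%, 21.5% and 30.4% of its level at 0 in the etoposide arm (replicates 1, 2 and 3) and 28.2%, 10.3% and 51.4% in the DMSO arm. It was thus lower at 40 than at 0 in 6 of 6 pairs, a pattern that 698 of 14186 tested genes (4.92%) also showed and that no other listed gene did. At time point 20 the pairs were not of one direction. HES1 stood at 155%, 40% and 78.5% of time point 0 in the etoposide arm and at 62.1%, 56.8% and 152% in the DMSO arm. Between 20 and 40 it was lower in every pair again, at 29.2%, 53.7% and 38.7% of the level at 20 with etoposide and 45.5%, 18.1% and 33.8% with DMSO. The change from 20 to 40 was not tested, and the share of all tested genes with this pattern was not determined.

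**Figure D2:**
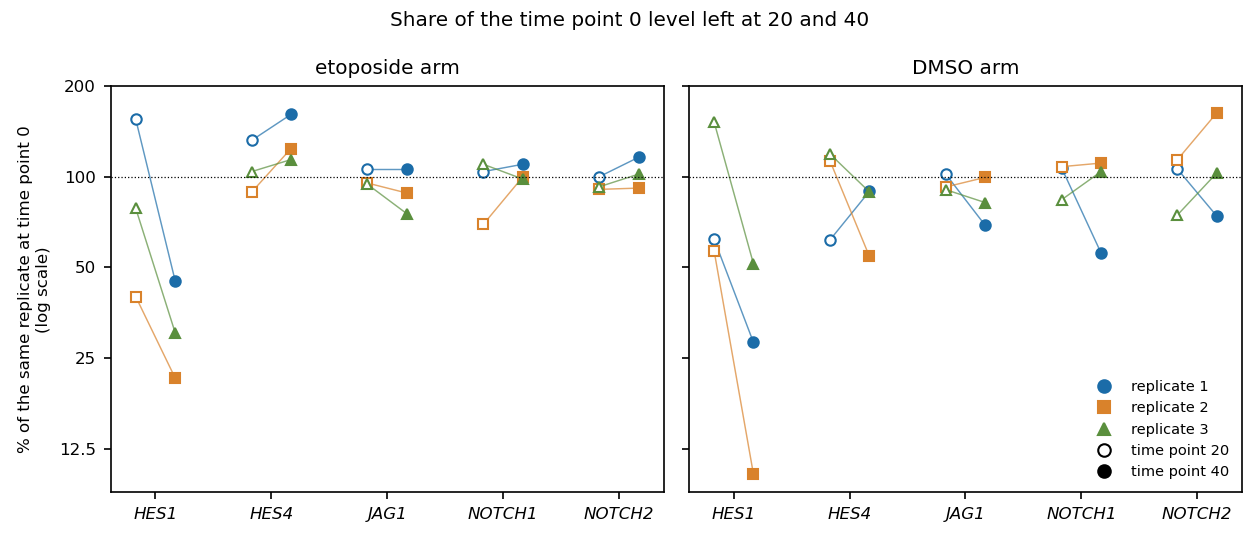
Level at time points 20 (open symbols) and 40 (filled symbols) as a percentage of the same replicate's level at time point 0 (y axis, log scale), in the etoposide arm (left) and the DMSO arm (right). HEY1 is left out for its low counts. HES1 lies between 10.3% and 51.4% at 40, and HES4 lies above 100% in the 3 etoposide pairs and below it in the 3 DMSO pairs.

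From 0 to 40 the log2 change of HES1 with etoposide was −1.74 (SE 0.652, 3.34-fold lower, n = 3 libraries a group). It did not pass edgeR's quasi-likelihood test (adjusted p = 1, unadjusted p = 0.0174), in which 29 genes passed, all lower (0.204% of those tested). With the replicate block HES1 fell by 1.77 on the log2 scale (SE 0.368, adjusted p = 0.0138), as 1 of 143 genes called (1.01%). In the DMSO arm the log2 change was −2.09 (SE 0.659, 4.25-fold lower) and again did not pass (edgeR adjusted p = 0.443, unadjusted p = 0.00627), where 60 genes did, all lower (0.423%). With the block HES1 fell by 2.03 (SE 0.373, edgeR adjusted p = 0.00319), among 173 genes called (1.22%), 171 lower (1.21%) and 2 higher (0.0141%). HES1 ranked low among all genes, with 42 genes (0.296%) having a change as low or lower with etoposide and 97 (0.684%) with DMSO. DESeq2, without a block, gave adjusted p = 0.718 with etoposide and 0.13 with DMSO.

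The calls with the block rested on few libraries. With etoposide the call was lost when replicate 2 of time point 0 was left out (log2 change −1.24, edgeR adjusted p = 0.232), or replicate 1 of time point 40 (−1.70, adjusted p = 0.162), replicate 2 (−1.86, 0.088) or replicate 3 (−1.76, 0.0742) of that time point. With DMSO it was lost without replicate 2 of time point 40 (−1.57, adjusted p = 0.0554). Without replicate 2 of DMSO at time point 0, the library with the high BEST1 count, HES1 stayed called in the DMSO arm (−1.92, adjusted p = 0.0168). In a model without any of the replicate 3 libraries and without a block, HES1 passed with DMSO (−2.32, SE 0.484, adjusted p = 0.0443) and did not pass with etoposide (−1.75, adjusted p = 0.376).

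No difference of HES1 between the arms was detectable beside the spread between replicates. At time point 0 its levels ran from 3.65 to 12.7 CPM with etoposide and from 2.67 to 12.6 CPM with DMSO. The log2 difference of etoposide minus DMSO was −0.16 (SE 0.616) at time point 0, 0.03 (SE 0.621) at 20 and 0.19 (SE 0.667) at 40, each with an edgeR adjusted p of 1. The change from 0 to 40 with etoposide minus that with DMSO was 0.35 (SE 0.908), or 0.26 (SE 0.531) with the block, and passed in neither fit. No gene passed in any comparison between the arms without the block, at an unadjusted p under 0.05 in 378 genes at time point 0, 108 at 20, 139 at 40 and 190 for the difference of the changes. DESeq2 called 1 gene at time point 40 and none in the other 3. With the block 1 gene passed at 40 (0.00705%), which is none of the listed or other pathway genes described here. From 0 to 20 HES1 changed by −0.33 (SE 0.619) with etoposide and −0.53 (SE 0.619) with DMSO, and no gene passed in either arm with edgeR, with or without the block, or with DESeq2, while 142 and 199 genes had an unadjusted p under 0.05.

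HES4, a HES family gene of humans (chromosome 1, 998962 to 1000172, minus strand), was higher at 40 than at 0 in every etoposide pair and lower in every DMSO pair, but no change or difference of it passed the test. With etoposide it had 4.91, 7.43 and 8.66 CPM in replicates 1, 2 and 3 at time point 0, 6.51, 6.6 and 8.97 CPM at 20, and 7.91, 9.19 and 9.86 CPM at 40. With DMSO it had 6.54, 11 and 8.64 CPM at 0, 4.03, 12.4 and 10.2 CPM at 20, and 5.84, 5.98 and 7.7 CPM at 40. At time point 40 all 3 etoposide libraries lay above all 3 DMSO libraries, as in 2.64% of tested genes, whereas at 0 and 20 the arms overlapped. At 40 HES4 stood at 161%, 124% and 114% of time point 0 with etoposide and at 89.4%, 54.5% and 89.1% with DMSO. This opposite pattern in all pairs was shown by 292 tested genes (2.06%).

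The difference of the changes of HES4 did not pass the test. It was 0.78 on the log2 scale (SE 0.468, edgeR adjusted p = 1, unadjusted p = 0.115). With the block it was 0.79 (SE 0.329, edgeR adjusted p = 0.991, unadjusted p = 0.0252), where 485 of 14186 tested genes had an unadjusted p under 0.05. The 2 changes behind it were 0.36 (SE 0.33) with etoposide and −0.42 (SE 0.332) with DMSO. Leaving out single libraries gave 0.15 to 0.54 with etoposide and −0.59 to −0.22 with DMSO. Without replicate 2 of DMSO at time point 0, the library with the high BEST1 count, the change with DMSO was −0.22. The difference of the changes was then 0.58. At time point 40 the difference of etoposide minus DMSO was 0.47 (SE 0.331, edgeR adjusted p = 1), higher in 3 of 3 pairs, as in 13.4% of tested genes. At time point 0 it was −0.31 (SE 0.33), or −0.50 to −0.11 with single libraries left out. Each library held 44 to 138 HES4 reads.

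**Figure D3:**
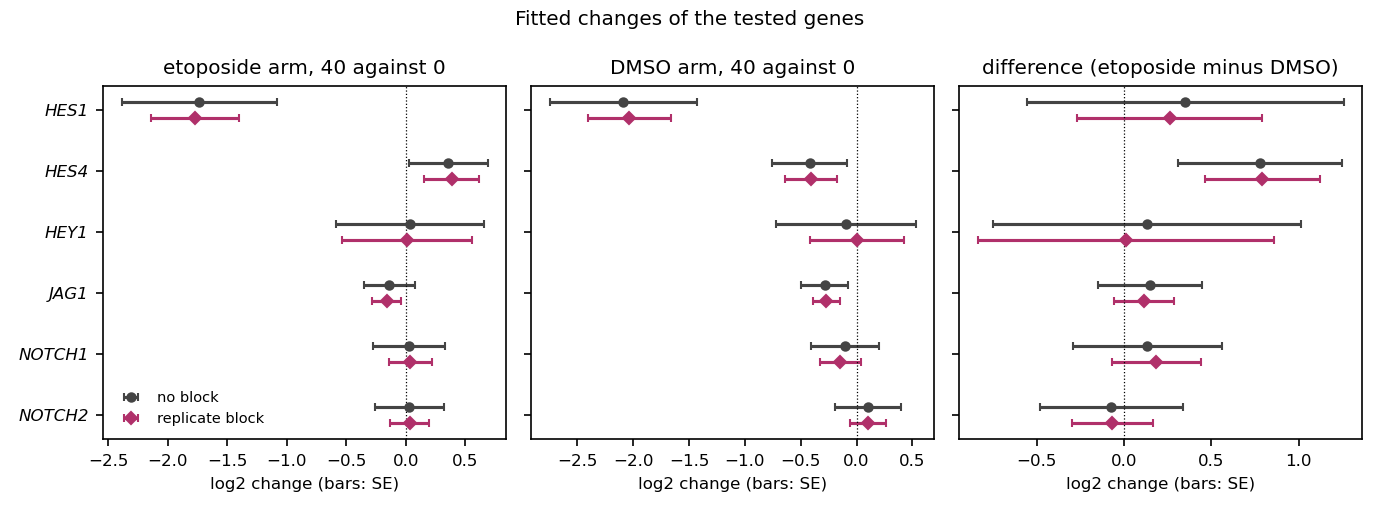
Log2 change from time point 0 to 40 (x axis) with etoposide (left), with DMSO (middle) and the difference of the changes, etoposide minus DMSO (right), from edgeR without (circles) and with the replicate block (diamonds); bars are SE. HES1 lies at −1.74 and −2.09 in the arms, and HES4 has the highest difference, 0.78, among the 6 genes.

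HEY1, a HES-related repressor gene on chromosome 8 (79764010 to 79767863, minus strand), was detected at 2 to 18 reads per library. With etoposide it had 0.661, 1.2 and 1.27 CPM at time point 0, 0.733, 1.03 and 1.12 CPM at 20, and 0.552, 1.36 and 1.33 CPM at 40. With DMSO it had 0.207, 2.06 and 0.853 CPM at 0, 1.28, 1.08 and 0.387 CPM at 20, and 1.15, 0.792 and 0.949 CPM at 40. The groups overlapped at every time point, and it was called in no comparison.

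JAG1, which encodes the Notch ligand Jagged1 (chromosome 20, 10637684 to 10673999, minus strand), was called in no comparison. With etoposide it had 45.6, 42.7 and 37.6 CPM at time point 0, 48.2, 40.7 and 35.5 CPM at 20, and 48.3, 37.7 and 28.4 CPM at 40. With DMSO it had 50.8, 38.3 and 36.5 CPM at 0, 52.1, 35.4 and 33.1 CPM at 20, and 35.1, 38.1 and 29.9 CPM at 40. Replicate 3 was the lowest in 6 of 6 groups, and the groups overlapped between all time points. The log2 change from 0 to 40 was −0.14 (SE 0.211) with etoposide and −0.28 (SE 0.211) with DMSO, and with the block the value in DMSO was −0.27 (SE 0.122, edgeR adjusted p = 0.569). The exons of JAG1 overlap those of the antisense gene AL050403.2, which had 18 counts in all. The setting of strand in the counting is not given in the sources used here.

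NOTCH1 (chromosome 9, 136494433 to 136545786, minus strand) averaged 26.6 ± 5.07, 25.2 ± 8.21 and 27.1 ± 3.71 CPM with etoposide at time points 0, 20 and 40 and 26.1 ± 6.03, 25.5 ± 2.28 and 24.2 ± 11.2 CPM with DMSO (SD, n = 3). The lowest library was replicate 1 of DMSO at 40, at 12.1 CPM, and replicate 3 was the highest in 6 of 6 groups. From 0 to 40 the log2 change was 0.03 (SE 0.303) with etoposide and −0.11 (SE 0.304) with DMSO.

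NOTCH2 (chromosome 1, 119911553 to 120069626, minus strand) was the main receptor RNA of these cells. It averaged 305 ± 78.4, 287 ± 64.6 and 312 ± 70 CPM with etoposide at time points 0, 20 and 40, and 278 ± 99.8, 260 ± 40 and 299 ± 102 CPM with DMSO (SD, n = 3). Replicate 3 was again the highest in 6 of 6 groups, and the range within each group was wider than the largest difference between group means. The log2 change from 0 to 40 was 0.03 (SE 0.292) with etoposide and 0.10 (SE 0.292) with DMSO. NOTCH2 has near-identical copies, of which NOTCH2NLA had 128 counts in all (at most 1.69 CPM) and NOTCH2P1 had 0, so reads shared with them may be missing from its count. Between the arms, JAG1, NOTCH1 and NOTCH2 differed by 0.00, 0.03 and 0.13 on the log2 scale at time point 0 (SE 0.211, 0.304 and 0.292) and by 0.15, 0.16 and 0.06 at 40 (SE 0.211, 0.304 and 0.292), none of which passed.

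Of 50 other genes of the pathway, 41 were tested: 2 of 4 ligand genes, 9 of 9 genes of receptor cleavage, 4 of 5 of sugar modification, 10 of 10 of the nuclear complex, 6 of 9 HES family and corepressor genes and 10 of 12 of ubiquitin transfer and endocytosis. The receptor gene NOTCH4 was not. None of the 41 passed in any of the 8 comparisons, higher or lower, in edgeR with or without the block or in DESeq2. Their unadjusted p lay under 0.05 in 1 gene for etoposide from 0 to 20 and in none of the other comparisons without the block. With the block it did so in 2, 3 and 1 genes between the arms at 0, 20 and 40, beside 882, 355 and 498 of all 14186 tested genes. It did so in 1 gene each for etoposide from 0 to 20 (387 of all), etoposide and DMSO from 0 to 40 (912 and 1138) and the difference of the changes (485). For DMSO from 0 to 20 it did so in 0 (392 of all). The most abundant gene of each role by CPM per kb was JAG2 among the other ligands (median 0.441), APH1A of the gamma-secretase complex (51), the O-fucosyltransferase gene POFUT1 (18.8), SNW1, a cofactor of RBPJ complexes (34.1), the corepressor gene TLE1 (9.08) and DTX3, of the Deltex family of ubiquitin ligases (18.2).

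The median log2 change of the 41 genes from 0 to 40 was −0.03 with etoposide (−1.01 to 0.41) and 0.08 with DMSO (−0.52 to 0.28), beside medians of 0.0027 and 0.00551 over all tested genes. The 6 tested listed genes had medians of 0.03 and −0.20, with HES1 the lowest in both arms. The 10 genes of the nuclear complex ranged from −0.38 to 0.14 with etoposide and from 0.04 to 0.24 with DMSO. The 9 cleavage genes ranged from −0.18 to 0.17 with etoposide and from −0.16 to 0.27 with DMSO. No other tested gene of the pathway had a change as low as that of HES1 in either arm.

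**Figure D4:**
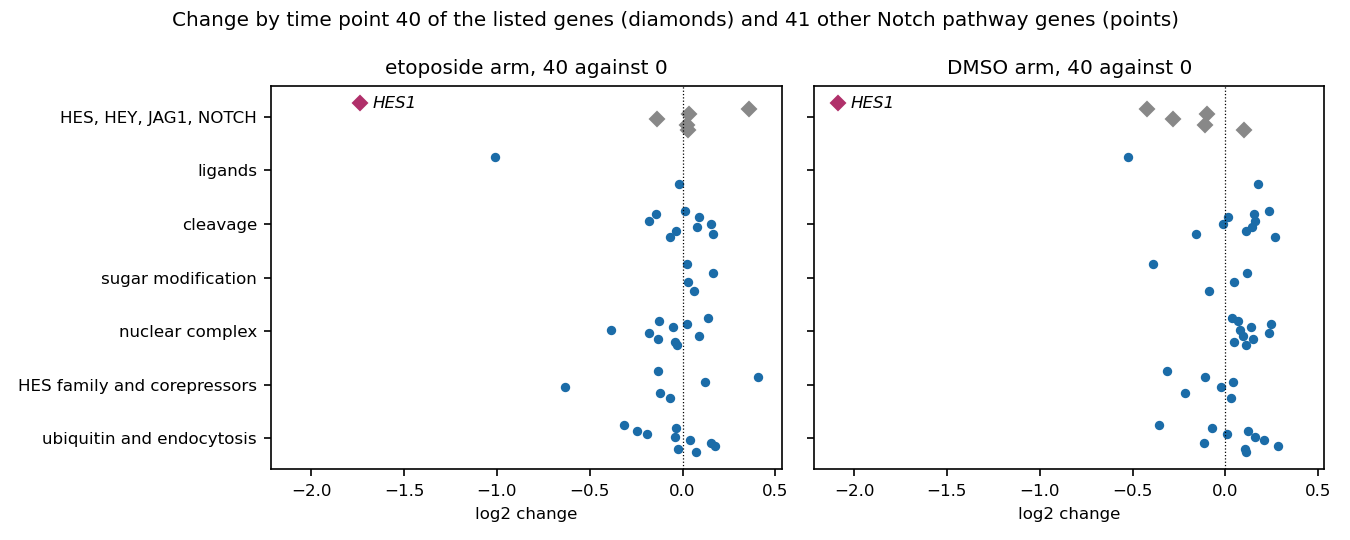
Log2 change from time point 0 to 40 (x axis) of the 6 tested listed genes (diamonds, top row, HES1 in colour) and of 41 other Notch pathway genes by role (points), with etoposide (left) and DMSO (right), from edgeR without the block. HES1 lies at −1.74 and −2.09, while the other pathway genes lie between −1.01 and 0.41.

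The tested genes with a mean of at least 5 CPM whose log2 levels followed each listed gene most closely over the 18 libraries were ranked by Pearson's r, as a description. The libraries share groups and the contrast between replicate 3 and the others, so these values mix both. HES1 was followed most closely by NFKBIA, which encodes an inhibitor of NF-kB (r = 0.920), ZC3H12A, which encodes the ribonuclease Regnase-1 (0.913), and SERTAD3 (0.913). HES4 was nearest to CTDNEP1 (0.860), NLRP1 (0.857) and KLC2 (0.843). For HEY1 the highest values were lower, with GCLM at 0.727, MXI1 at 0.717 and SLC16A14 at 0.674. JAG1 was nearest to AKNA (0.864), F2RL1 (0.859) and SMG8 (0.846). NOTCH1 was nearest to CAD (0.956), BCL9L (0.940) and ZBTB4 (0.936), and NOTCH2 to ATP2A2 (0.976), PTPN14 (0.968) and NF1 (0.966).

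Among the listed genes themselves, NOTCH1 and NOTCH2, both highest in replicate 3, had r = 0.768 over the 18 libraries. HES1 and JAG1, both low in replicate 3, had r = 0.681. HES1 and NOTCH2 had r = −0.587, HES4 and JAG1 −0.603, and HES1 and HES4 −0.179.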

How the data were processed

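RNA of 18 libraries (6 groups of 3) was sequenced from stranded mRNA libraries. The values deposited by the authors are whole-number counts per gene, not normalized. The tools named in the submitters' processing notes are bcl2fastq, HISAT2 and featureCounts, with GRCh38 (hg38) as the build. The sources used here give no versions, annotation release or strand setting. Of the 58051 identifiers, 57447 matched GENCODE 29, which gave positions and exon lengths.

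Counts were tested with edgeR 4.0.16 (R 4.3.3): quasi-likelihood test, robust, TMM factors (0.978 to 1.02), default filter (14186 genes with 99.84% of counts), 1 model of 6 groups, Benjamini-Hochberg adjustment over all tested genes, threshold 0.05. SE came from the F statistic. The script was tested on simulated data. Same-numbered libraries deviated together (45 pairs, r = 0.359 to 0.911, minimum set 0.1). Replicate 1 against replicate 2 passed that minimum too (r = 0.392 to 0.63). The check thus set replicate 3 apart, but it cannot show that replicates 1 and 2 were matched by number. Pairing by the labels' replicate numbers is therefore an assumption, under which a replicate block was fitted as the alternative. Others were DESeq2 1.42.0, its size factors, library size only, scaling to 82 ribosomal protein genes, no filter and leaving out each library. Leaving out replicate 3 throughout, and single libraries under the block, were added after seeing the data. Promoter sequences are from RefSeq (GRCh38.p14).

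The members and the lists were chosen with earlier results of these data known. All 10 members are named. Other pathway genes are named only when called or the most abundant of their role, and 3 genes are named as most similar to each tested member.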

Additional observations from a re-analysis of the deposited data

Results flagged for a closer look

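HES4 was the listed gene whose libraries moved one way in every etoposide pair and the other way in every DMSO pair between time points 0 and 40. The difference of the changes was 0.78 on the log2 scale (SE 0.468), and it did not pass edgeR's test (adjusted p = 1, n = 3 libraries a group). It kept its sign under every alternative run, from 0.57 to 0.96 when single libraries were left out, 0.62 when scaled to ribosomal protein genes and 1.03 without replicate 3. HES4 was picked here for its opposite movement in all pairs, so the kept sign follows largely from that choice and is no separate support.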

How the results depend on the processing

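The replicate block raised the genes called from 0 to 40 to 143 with etoposide and 173 with DMSO, against 29 and 60 without it, and called 1 listed gene, HES1, in each arm, against 0. It called 1 gene between the arms at time point 40, against 0, as did DESeq2 (1) and leaving out replicate 3 (1); the block changed no other call of a listed gene. DESeq2 called 66 and 114 genes over all genes it was given (66 and 108 of those tested with edgeR), and scaling to ribosomal protein genes 18 and 33 from 0 to 40 with etoposide and DMSO. Without replicate 3, 1 listed gene passed with DMSO. Single libraries left out gave 12 to 33 genes with etoposide, 27 to 86 with DMSO and 0 to 1 between the arms at 40. Scaling to ribosomal protein genes shifted the median of all genes by 0.129 for etoposide minus DMSO at time point 0 and by −0.103 for etoposide from 0 to 20.

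Small changes turned sign. For etoposide minus DMSO, JAG1 at 0 was −0.000768 with DESeq2 and −0.0102 without replicate 3, and HES1 at 20 was −0.0498 with the block and −0.00616 scaled to ribosomal protein genes. From 0 to 40 with etoposide, NOTCH1 was −0.0050 and NOTCH2 −0.00169 by library size only, and −0.0614 and −0.0496 scaled to ribosomal protein genes, and the NOTCH1 difference of changes was −0.0307 there. With single libraries left out, etoposide minus DMSO at 0 ranged from −0.0865 to 0.17 for JAG1, −0.74 to 0.23 for HES1, −0.10 to 0.23 for NOTCH1 and −0.0849 to 0.44 for NOTCH2. At 20 it ranged from −0.57 to 0.36 for HES1. At 40 it ranged from −0.12 to 0.90 for HES1, −0.0566 to 0.32 for JAG1, −0.16 to 0.49 for NOTCH1 and −0.17 to 0.32 for NOTCH2. HES1 with etoposide from 0 to 20 ranged from −0.93 to 0.25, and with DMSO from −0.95 to −0.13. From 0 to 40 with etoposide, NOTCH1 ranged from −0.12 to 0.16, NOTCH2 from −0.17 to 0.23 and JAG1 from −0.34 to 0.036, and with DMSO NOTCH2 from −0.16 to 0.41 and NOTCH1 from −0.44 to 0.22. The difference of changes ranged from −0.19 to 0.46 for NOTCH1, −0.38 to 0.19 for NOTCH2, −0.0597 to 0.32 for JAG1 and −0.0444 to 1.06 for HES1. HES1 from 0 to 40 ranged from −2.07 to −1.16 with etoposide and −2.80 to −1.69 with DMSO. The cause of these shifts was not tested. The spread between replicates and counts of 10 to 126 reads limit HES1, and 4 listed genes were too low to test.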
